A study of Cucumis sativus var. sativus with 11 samples.

Results

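In cucumber ovaries, 47 of 23248 genes stood lower 1 day after anthesis when no pollen was applied than on the day of anthesis itself, and lower than 1 day after pollination, with or without older fruits on the plant. They are called here the genes lost only without pollination, which is a short label. Their unpollinated mean was still 5.68 to 51.8% of the anthesis mean. Some also lay below anthesis elsewhere, such as Csa6G492310 in pollinated ovaries (log2 difference -1.37) and Csa3G280970 in inhibited ones (-1.20). The 47 genes were chosen by measured values from all 4 groups of the study, on the scale log2(normalized count + 1). A gene needed a mean normalized count of 50 or more at anthesis and a mean in unpollinated ovaries at least 1 log2 unit below each of the other 3 group means. Its pollinated mean had to lie less than 0.8 above the anthesis mean, and its highest unpollinated library had to lie below the lowest of the other 8 libraries. The low level without pollination is therefore how the genes were found and is described with no test.

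The ovaries came from Elem Female, a gynoecious line, which bears female flowers, and a non-parthenocarpic line, which does not set fruit without pollination. RNA-seq was done on 11 individual ovaries of 1 month old plants grown in a net house. Anthesis ovaries (n = 3) were taken unpollinated on the day the flower opened. Pollinated ovaries (n = 3) were taken 1 day after pollen of a pollinator genotype was applied, unpollinated ovaries (n = 3) at the same age without pollen, and inhibited ovaries (n = 2) 1 day after pollination on plants that already bore older fruits. Whether the ovaries of a group came from separate plants is not given, so the spread between libraries is that between individual ovaries. No ovaries that were left unpollinated beside older fruits were analysed here. Pollination and older fruits therefore cannot be separated where inhibited ovaries are set against unpollinated or anthesis ovaries.

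As background, growth of the ovary slows before the flower opens and resumes when pollen is received and the ovules are fertilized, with auxin and gibberellin as known signals. Without pollination the ovary of a line that needs pollen stops growing and later withers. Older, growing fruits on the same plant commonly hold back younger ones, and in cucumber this is known as first-fruit inhibition. The deposited files give genes by identifier only, and a search of the reference gene table for these identifiers had 0 matches. What the 47 genes encode is therefore not stated, ovary markers could not be checked by name, and no pathway list could be counted. In RNA from whole ovaries, fewer cells of a type and less RNA per cell cannot be told apart.

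Libraries held 18158218 to 26456643 reads assigned to genes. In 4 libraries the share of reads assigned to no gene was raised, at 16.8 to 24.8%, against 10.8 to 13.3% in the other 7. These were pollinated replicates 1 and 3, unpollinated replicate 3 and inhibited replicate 2. The second index sequence of the libraries had 2 forms. All anthesis and pollinated libraries and unpollinated replicate 1 carried the first form, and unpollinated replicates 2 and 3 and both inhibited libraries the second. Anthesis replicate 3 was the only library from lane 2.

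The genes that stood low without pollen were classed by the thresholds of the choice in pollinated and inhibited ovaries. Of 16062 genes with a mean normalized count of 50 or more at anthesis, 391 (2.43%) had an unpollinated mean at least 1 log2 unit below the anthesis mean. In 250 of these (63.9%) neither the pollinated nor the inhibited mean was 1 unit or more above the unpollinated mean. In 54 only the inhibited mean was that far above, in 32 only the pollinated mean, and in 55 both were. The upper limit on the pollinated mean left 50 of the 55, and the condition on single libraries left the 47, which are 0.293% of the 16062. The sizes of these classes follow from the thresholds, and differences between classes were not tested.

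The 47 genes spanned a wide range of levels at anthesis, from a mean normalized count of 51.7 to 54412, with a median of 259 against 698 over the 16062 genes. There were 12 genes under 100, 23 between 100 and 1000, and 12 at 1000 or more. In unpollinated ovaries the mean level was 5.68 to 51.8% of that at anthesis, with a median of 34.0%. The same ratio had a median of 107% in pollinated ovaries (36.7 to 176%) and of 105% in inhibited ovaries (42.5 to 200.1%). On the log2 scale the median difference from anthesis was -1.54 without pollination, 0.11 with it and 0.07 in inhibited ovaries, and over the 16062 genes these medians were -0.015, -0.00047 and -0.012. As a group the 47 genes took 0.318 to 0.413% of the gene reads at anthesis, 0.218 to 0.306% in pollinated, 0.288 to 0.315% in inhibited and 0.101 to 0.153% in unpollinated libraries.

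**Figure D1:**
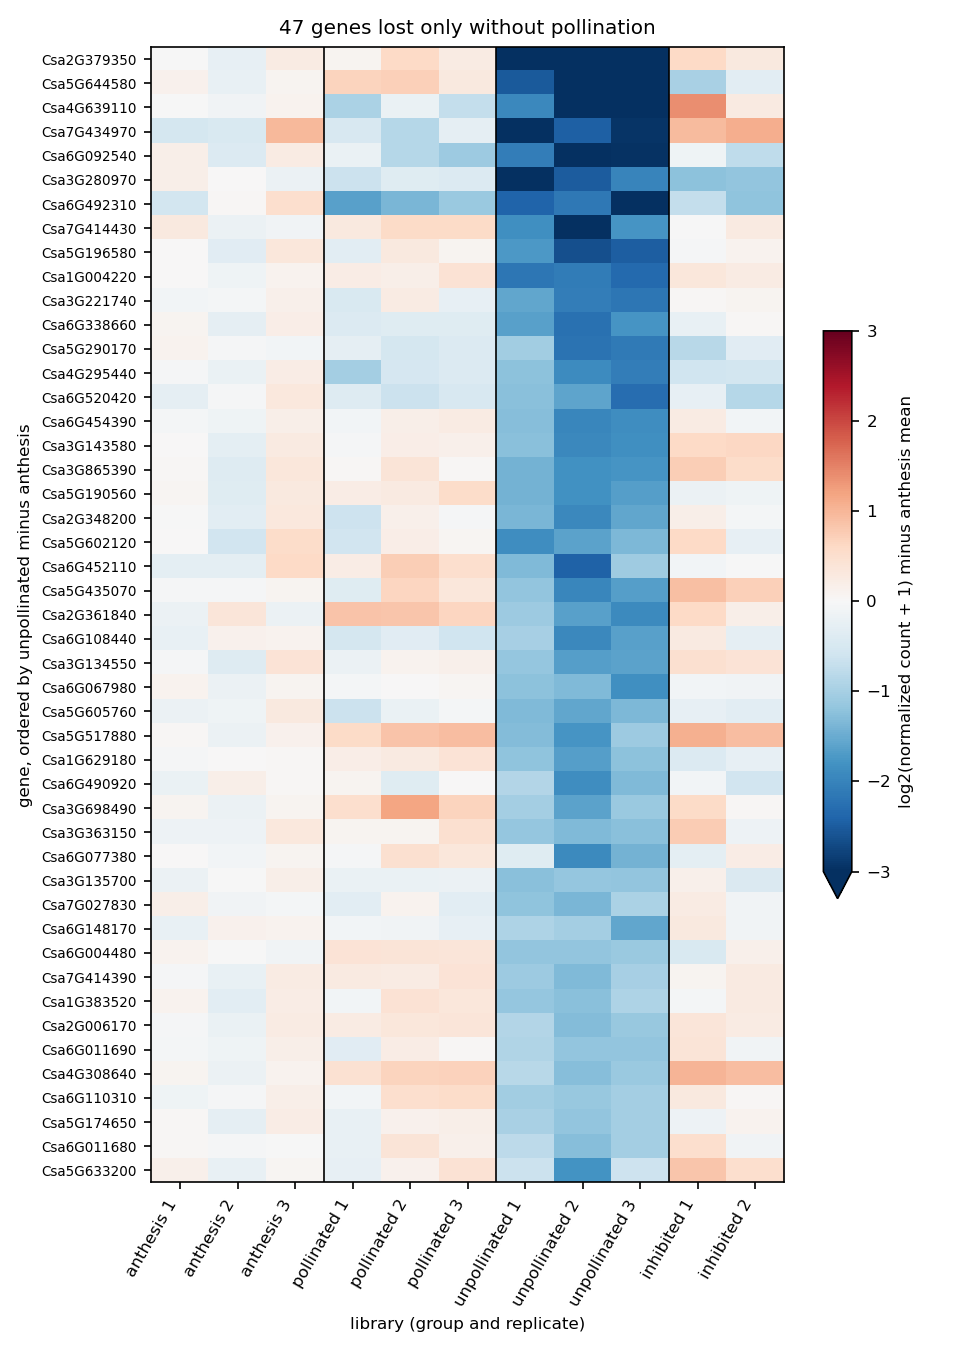
Heat map of the 47 genes (rows, ordered by unpollinated minus anthesis) in 11 libraries (columns); colour gives log2(normalized count + 1) minus the anthesis mean of the gene, cut at -3. The 3 unpollinated columns are low in every row because the genes were chosen so. In 26 rows the anthesis, pollinated and inhibited means lie within 0.5 log2 units of each other. The other rows differ more, such as Csa4G639110 with 1340 in inhibited replicate 1.

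Among the 47 genes, 10 lay 2 log2 units or more below anthesis without pollination, 15 lay between 1.5 and 2 below and 22 between 1 and 1.5 below. Csa2G379350 lay furthest below, with a log2 difference of -4.35. Its normalized count was 232, 199 and 279 at anthesis, 249, 355 and 278 in pollinated ovaries and 355 and 288 in inhibited ovaries. Unpollinated replicates 1, 2 and 3 had 27.7, 6.57 and 6.06, from 26, 7 and 6 reads. The lowest of the other 8 libraries was thus 7.17 times the highest unpollinated one, the widest gap among the 47 genes. Pollinated libraries overlapped those of anthesis and of inhibited ovaries, and both inhibited libraries lay above the anthesis range.

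Csa5G644580 was the next deepest, at -3.57. It stood at 241, 188 and 233 at anthesis and at 349, 363 and 269 in pollinated ovaries, against 37.4, 9.38 and 15.2 in unpollinated ones. In inhibited ovaries it had 111 and 177, above every unpollinated and below every anthesis and pollinated library. Csa3G280970 was less abundant, with 70.9, 63.1 and 55.1 at anthesis, 39.8, 48.9 and 47.2 in pollinated, 26.3 and 27.3 in inhibited and 4.27, 10.3 and 15.2 in unpollinated libraries. For both genes the inhibited libraries lay between the unpollinated and the other libraries, and in Csa3G280970 the pollinated libraries also lay below those of anthesis.

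In Csa4G639110 and Csa7G434970 the inhibited ovaries were the highest group by their mean. Csa4G639110 had 505, 474 and 548 at anthesis, 264, 445 and 309 in pollinated, 1340 and 617 in inhibited and 131, 43.2 and 39.4 in unpollinated libraries. Both inhibited libraries lay above all the others, but they differed widely from each other. Csa7G434970 stood at 31.4, 32.9 and 90.9 at anthesis, 32.3, 24.9 and 37.4 in pollinated, 88.2 and 97.4 in inhibited and 3.20, 7.51 and 5.05 in unpollinated libraries. Its level at anthesis rested on replicate 3, which overlapped the inhibited range, whereas replicates 1 and 2 lay within the pollinated range.

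Not all of the deepest genes stood at their anthesis level in pollinated ovaries. Csa6G492310 had 56.5, 85.3 and 117 at anthesis, 26.1, 31.6 and 37.4 in pollinated, 49.8 and 35.1 in inhibited and 14.9, 17.8 and 9.09 in unpollinated libraries. All libraries taken after 1 day were thus below all anthesis libraries, and the pollinated mean was 36.7% of the anthesis mean, the lowest such share among the 47. Csa6G092540 had 70.0, 46.2 and 73.4 at anthesis, 53.4, 33.5 and 28.5 in pollinated, 56.3 and 36.4 in inhibited and 13.9, 4.69 and 7.07 in unpollinated libraries. Here the anthesis, pollinated and inhibited libraries overlapped. Csa7G414430 was retained in both settings, with 87.1, 63.1 and 66.1 at anthesis, 87.0, 106 and 106 in pollinated, 70.4 and 85.7 in inhibited and 19.2, 5.63 and 20.2 in unpollinated libraries. Several of these deep genes had few reads without pollination, 16 over the 3 libraries for Csa7G434970 and 30 for Csa3G280970, so their depth is less precise than that of abundant genes.

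**Figure D2:**
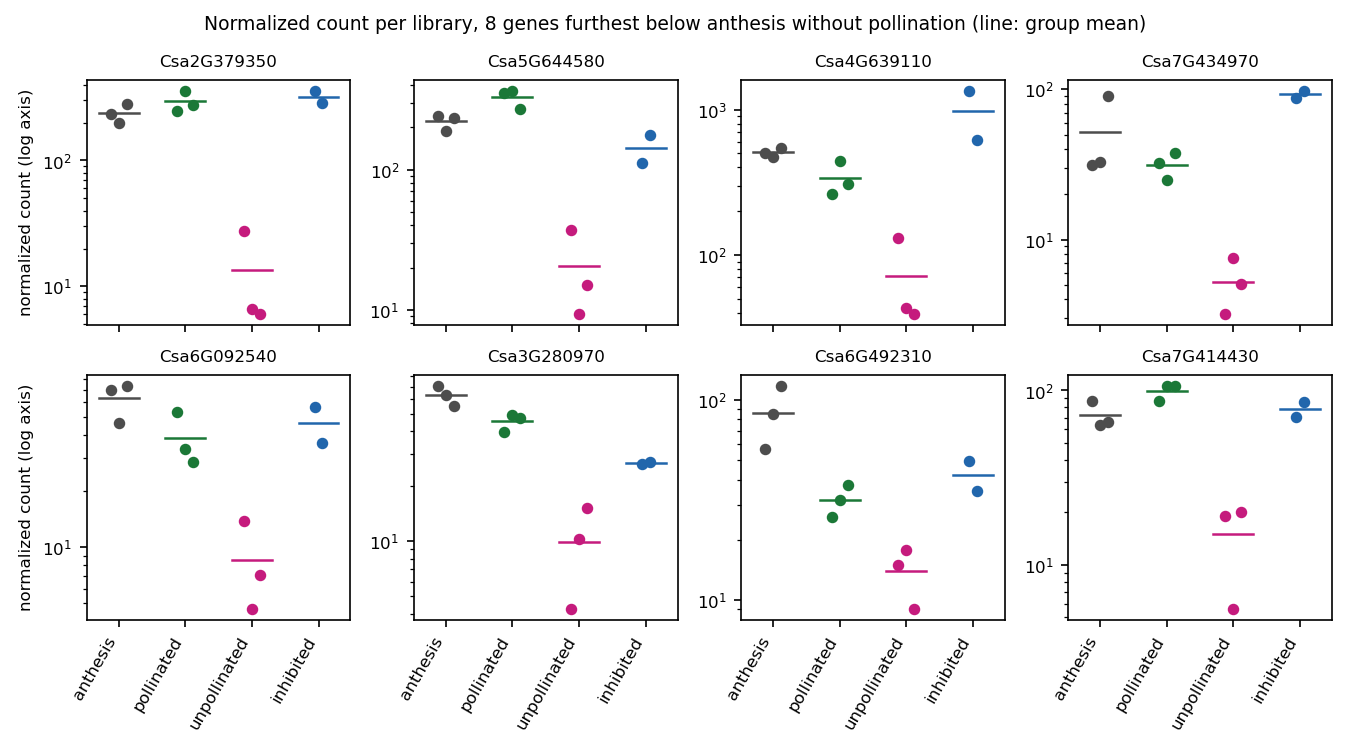
Normalized count (log axis, a separate scale in each panel) of the 8 genes furthest below anthesis without pollination; points are libraries and lines group means. Inhibited ovaries (blue) lie below pollinated ones (green) in Csa5G644580 (111 and 177), Csa3G280970 (26.3 and 27.3) and Csa7G414430 (70.4 and 85.7). They lie above them in Csa4G639110 (1340 and 617) and Csa7G434970 (88.2 and 97.4), and overlap them in the other panels.

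The most abundant of the genes was Csa4G295440, which took 0.207 to 0.270% of all gene reads at anthesis and so most of the reads of the whole group. Its normalized count was 53029, 47079 and 63128 at anthesis, 26804, 38258 and 40889 in pollinated, 35680 and 36765 in inhibited and 23034, 14631 and 12829 in unpollinated libraries. Pollinated and inhibited libraries overlapped and lay below all anthesis libraries, and pollinated replicate 1 was only 1.16 times unpollinated replicate 1. Csa5G196580 showed retention most evenly among the abundant genes. It had 2232, 1750 and 2797 at anthesis, 1789, 2705 and 2333 in pollinated, 2177 and 2386 in inhibited and 676, 354 and 401 in unpollinated libraries. The means of the first 3 groups lay within 0.04 log2 units of each other, while unpollinated minus anthesis was -2.28 on that scale.

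Csa6G338660 and Csa6G011690 complete the 4 genes with the highest level at anthesis. Csa6G338660 had 3562, 2785 and 3897 at anthesis, 2556, 2632 and 2633 in pollinated, 2910 and 3492 in inhibited and 1085, 722 and 996 in unpollinated libraries. All 3 of its pollinated libraries lay below all anthesis libraries, and the inhibited ones overlapped anthesis. Csa6G011690 stood at 2308, 2194 and 2717 at anthesis, 1891, 2782 and 2467 in pollinated, 3125 and 2215 in inhibited and 1278, 1049 and 1050 in unpollinated libraries. Its 3 retained groups overlapped. Over the 47 genes the rank correlation between the anthesis level and the unpollinated minus anthesis difference was 0.29 (Spearman, n = 47 genes measured in the same libraries). The 12 genes at 1000 or more had a median difference of -1.45, and the 12 under 100 of -1.70.

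Unpollinated replicate 1 was the least depleted library. Its median over the 47 genes was -1.24 log2 units from the anthesis mean, against -1.82 and -1.60 in replicates 2 and 3, and it was the highest of the 3 for 32 of the 47 genes (68.1%, against 38.4% of the 16062 genes). The genes also varied more than others within groups: the median SD over libraries on the log2 scale was 0.33 in unpollinated ovaries and 0.20 at anthesis, against 0.11 in both over the 16062 genes, whose level is higher. The largest ranges between unpollinated libraries were those of Csa2G379350, Csa5G644580 and Csa4G639110, at 2.03, 1.89 and 1.71 log2 units, with replicate 1 the highest in each.

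The order of libraries within the other groups was also shared by many of the genes. Anthesis replicate 3, the lane 2 library, was the highest of its group in 34 of the 47 genes (72.3%, against 36.8% of the 16062 genes). Anthesis replicate 2 was the lowest in 31 (66.0%, against 35.5%). Pollinated replicate 1, which had 21.1% of its reads assigned to no gene, was the lowest of its group in 33 of the 47 (70.2%, against 38.2%). Pollinated replicate 3 had 20.5% of such reads. It was the lowest in 7 genes (14.9%, against 29.9%) and the highest in 20 (42.6%, against 29.8%). The part of unassigned reads in this order was not tested. The part of the lane in the order at anthesis was not tested.

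The second index form moved with the order in unpollinated ovaries, since replicate 1 alone carried the form of the anthesis and pollinated libraries. Among libraries of that form, replicate 1 lay 1 log2 unit or more below the anthesis mean in 37 of the 47 genes and below the pollinated mean in 36, with median differences of -1.24 and -1.36. Among libraries of the second form, unpollinated replicates 2 and 3 lay at least 1 below the inhibited mean in 47 of 47, with a median of -1.66. These values follow in part from the choice, which set every unpollinated library below all the others, so they do not bear on the part of the index form in the low level, which was not tested.

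**Figure D3:**
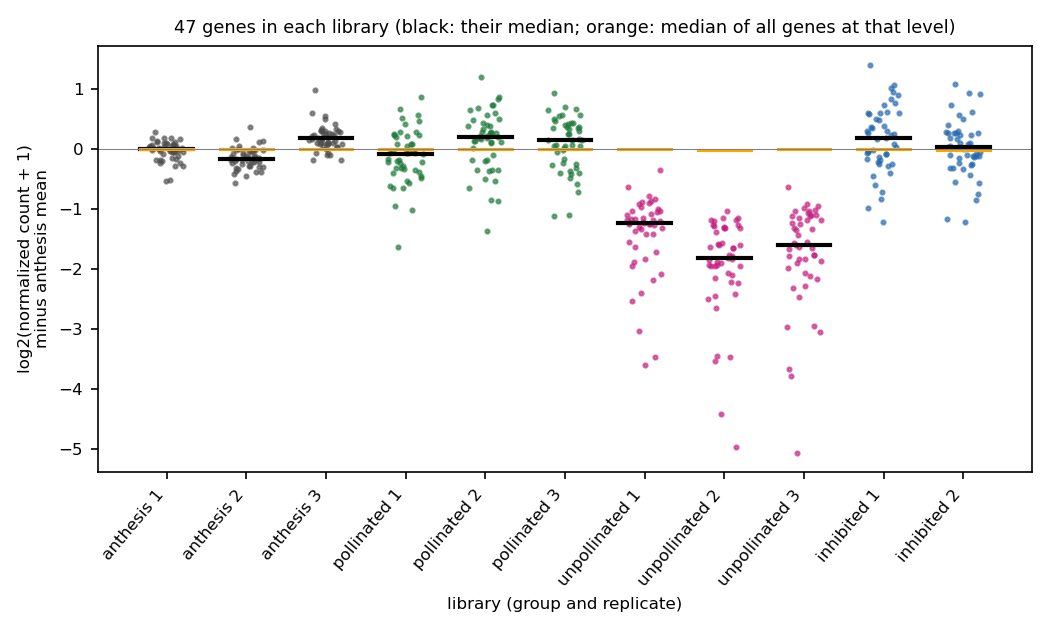
Each point is 1 of the 47 genes in 1 library, as log2(normalized count + 1) minus the anthesis mean of the gene; black lines are medians of the 47 genes and orange lines medians of the 16062 genes with a mean of 50 or more at anthesis. The black line lies at -1.24, -1.82 and -1.60 in unpollinated libraries and between -0.16 and 0.20 elsewhere, while the orange line stays near 0.

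The 47 genes did not share a single profile in the ovaries that kept them. In 26 genes the anthesis, pollinated and inhibited means lay within 0.5 log2 units of each other. Both pollinated and inhibited means were 0.5 or more above anthesis in Csa5G517880 and Csa4G308640, and both were 0.5 or more below in Csa6G492310, Csa4G295440 and Csa6G520420. The pollinated mean was 0.5 or more above anthesis without the inhibited one in 3 genes and below in 3. Among these, the inhibited mean lay 0.5 or more on the other side of anthesis in Csa5G644580, Csa4G639110 and Csa7G434970. The inhibited mean alone was 0.5 or more above in 4 genes and below in 2. In the other 4 genes both means were within 0.5 of anthesis, but the 3 means spread over more than 0.5.

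Among the genes with the highest pollinated mean relative to anthesis, Csa3G698490 had 271, 230 and 275 at anthesis, 369, 590 and 411 in pollinated, 386 and 265 in inhibited and 126, 84.4 and 119 in unpollinated libraries. Csa2G361840 stood at 79.0, 116 and 78.9 at anthesis, 164, 161 and 142 in pollinated, 136 and 101 in inhibited and 41.6, 28.1 and 23.2 in unpollinated libraries. For both genes all pollinated libraries lay above all anthesis libraries, and the inhibited libraries overlapped those of anthesis. The upper limit of the choice kept out genes with larger pollinated values. Over the 47 genes, all pollinated libraries lay above all anthesis libraries in 9 genes and below them in 8, where 19.4 and 20.6% of the 16062 genes did so. Since the choice capped the pollinated level, nothing is read from these counts.

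Inhibited and pollinated ovaries differ in the older fruits on the plant, and their libraries also differ in the second index form. The choice did not use the difference between these groups as such, but it required both to stand at least 1 above unpollinated ovaries and capped the pollinated mean. Of the 391 genes low without pollen it thereby left out the 32 that stood that far above unpollinated ovaries only in pollinated ones and the 54 that did so only in inhibited ones. The calls below are therefore given gene by gene, and their number does not say how often older fruits went with a change in genes that pollination retained. The choice bounded the values of each single gene as well. All 47 genes passed the filter on low counts. Inhibited ovaries were called higher in 2 of the 47 genes and lower in 2 (quasi-likelihood test of edgeR with p adjusted by Benjamini-Hochberg, threshold 0.05), which is 8.51% of them. Over all 18679 genes tested 11.3% were called, 6.54% higher and 4.81% lower, and nothing is read from the share among the 47 since the choice bounded both groups. The median log2 fold change of the 47 was 0.04, and that of all genes was 0.00.

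The 2 genes called higher in inhibited than in pollinated ovaries were Csa7G434970 and Csa4G639110, with the values given above. In Csa7G434970 the log2 fold change was 1.55 ± 0.43 SE (adjusted p = 0.0370 in edgeR), with both inhibited libraries above all 3 pollinated ones. That of Csa4G639110 was 1.53 ± 0.37 SE (adjusted p = 0.0200 in edgeR), and the libraries were apart in the same way. Csa5G644580 was lower in inhibited ovaries, with a log2 fold change at -1.19 ± 0.32 SE (adjusted p = 0.0322 in edgeR), with both inhibited libraries below all pollinated ones. Csa1G629180 was lower by a smaller amount, -0.62 ± 0.13 SE (adjusted p = 0.00844 in edgeR). It had 617, 646 and 649 at anthesis, 728, 771 and 847 in pollinated, 481 and 535 in inhibited and 274, 204 and 272 in unpollinated libraries. Its inhibited libraries lay below both the anthesis and the pollinated ranges and above the unpollinated range.

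These 4 calls were not firm. None of them was made without inhibited replicate 1 (at an unadjusted p under 0.05, 1 of the 47 genes was then higher and 3 lower in edgeR) or without the 4 libraries whose share of unassigned reads was raised (3 and 4). Single pollinated libraries mattered as well: without replicate 1, 2 or 3 the number called was 1, 2 and 2. Csa7G434970 lost its call without any 1 of these or of the inhibited libraries, Csa4G639110 without pollinated replicate 1 or 3 and Csa5G644580 without pollinated replicate 1 or 2. The log2 fold changes in these fits were close to those with all libraries, at 1.40 to 1.70 for Csa7G434970, 1.37 and 1.46 for Csa4G639110 and -1.16 and -1.11 for Csa5G644580, and without the 4 libraries they were 1.82, 1.59 and -1.71. Without inhibited replicate 1 the log2 fold change of Csa4G639110 was 0.85. In a fit with a term for the second index, 4 of the 47 were called higher and 0 lower (1 lower at an unadjusted p under 0.05), and the log2 fold changes of Csa7G434970, Csa5G644580 and Csa1G629180, no longer called, were 0.59, 0.40 and -0.42, while that of Csa4G639110 was 3.19. All pollinated libraries had one index form and both inhibited libraries the other. Only the unpollinated group had both forms, so its replicate 1 against its replicates 2 and 3 set the index term. The choice used these values. With the term the median log2 fold change of the 47 genes was 0.46, and that of all genes 0.0014. This fit is therefore no separate check of the calls.

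Another 43 of the 47 genes were not called, with log2 fold changes from -0.76 to 0.54. This does not show that the 2 groups had equal levels. The SE had a median of 0.22 over the 47 genes, and in 36 of them the log2 fold change stayed within 1 either way when 2 SE were added or taken off. By normalized counts alone, both inhibited libraries lay above all pollinated ones in 10 of the 47 genes (21.3%) and below them in 9 (19.1%), where 20.7 and 20.6% of the 16062 genes did so. These shares are bounded by the choice in the same way.

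Inhibited ovaries were next compared with anthesis. The choice did not use this difference as such, but it kept only genes whose inhibited mean and libraries stood above the unpollinated ones, and 21 genes failed that limit on the mean alone, so low inhibited values were partly left out and the balance of higher and lower genes is not read. Here 2 of the 47 genes were higher and 0 lower at an adjusted p under 0.05 in edgeR. That is 4.26% of them, where 7.37% of all genes tested were called, 4.0% higher and 3.36% lower. At an unadjusted p under 0.05, 9 were higher and 4 lower in edgeR, and with DESeq2 at an adjusted p under 0.05, 5 were higher and 1 lower. The median log2 fold change over the 47 genes was 0.08, with a median SE of 0.22.

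Csa4G308640 and Csa5G517880 were the genes called higher in inhibited ovaries than at anthesis. Csa4G308640 had 867, 719 and 876 at anthesis, 1126, 1306 and 1324 in pollinated, 1658 and 1546 in inhibited and 457, 339 and 375 in unpollinated libraries. Its log2 fold change in inhibited ovaries was 0.97 ± 0.12 SE (adjusted p = 0.00151 in edgeR), and its 4 groups did not overlap. Csa5G517880 stood at 137, 117 and 146 at anthesis, 198, 241 and 255 in pollinated, 280 and 254 in inhibited and 53.4, 38.5 and 61.6 in unpollinated libraries, with a log2 fold change at 1.01 ± 0.19 SE (adjusted p = 0.0117 in edgeR). Its inhibited libraries overlapped the pollinated ones and lay above all anthesis libraries. Csa4G308640 was called under all 18 alternatives tried, and Csa5G517880 under 16, the exceptions being the fit without inhibited replicate 1 (adjusted p = 0.0643 in edgeR) and that with a term for the second index (adjusted p = 0.463 in edgeR). Its log2 fold change in those fits was 0.92 and 1.10. Over the alternatives its adjusted p ran from 0.00738 to 0.463 in edgeR and was 8.88e-05 in DESeq2. The alternatives were not separate checks of these 2 calls. The index term is set by the unpollinated group alone, from values that the choice used. Fits without a pollinated or unpollinated library kept every library of this comparison. In those fits the log2 fold change of Csa4G308640 was 0.95 to 0.97.

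Pollinated and inhibited ovaries share the anthesis libraries as their reference, so values are given side by side. In Csa4G308640 the difference from anthesis on the log2 scale was 0.61 in pollinated and 0.97 in inhibited ovaries, and in Csa5G517880 0.79 and 0.999. The number of genes called against anthesis also depended on single libraries: it was 6 without unpollinated replicate 1 and 4 without unpollinated replicate 3. Unpollinated libraries are not in this comparison but enter the spread that the 4 groups share in the fit. Without unpollinated replicate 1 the median SE over the 47 genes was 0.18, against 0.22 with all libraries. Both inhibited libraries lay above all anthesis libraries in 9 of the 47 genes (19.1%) and below them in 7 (14.9%), against 21.2 and 23.9% of the 16062 genes. The choice kept inhibited values above unpollinated ones, so nothing is read from these shares.

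**Figure D4:**
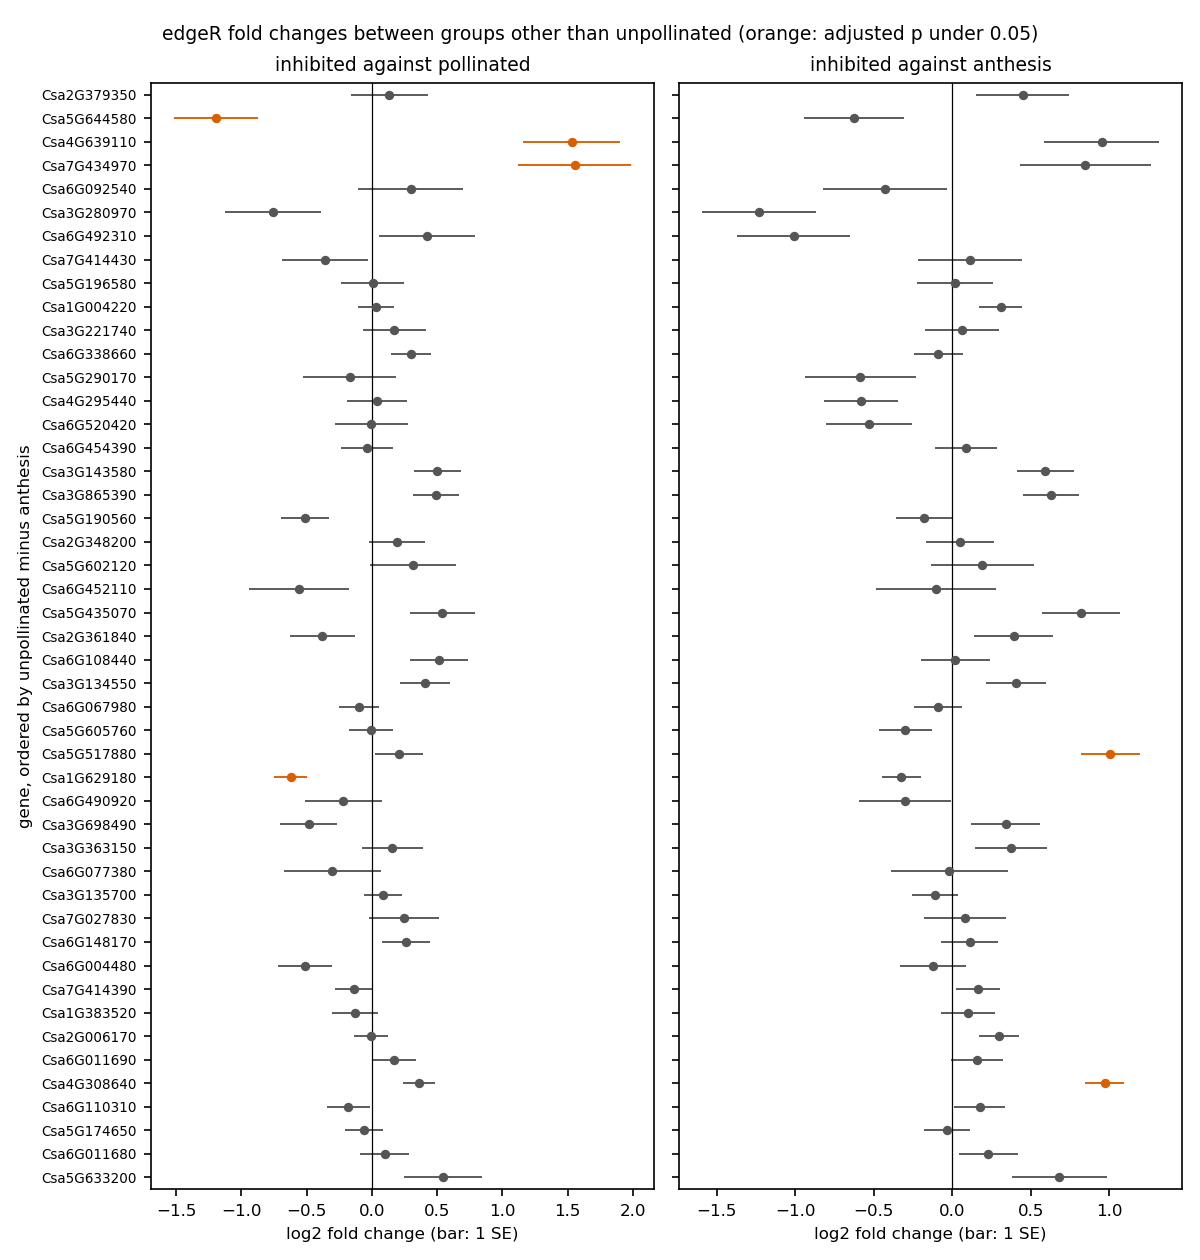
Log2 fold change of each of the 47 genes (rows, ordered as in the heat map) with inhibited against pollinated ovaries on the left and inhibited ovaries against anthesis on the right; bars are 1 SE from edgeR, and orange marks an adjusted p under 0.05. Orange genes are 4 on the left and 2 on the right, and most points lie near 0, with medians of 0.04 and 0.08.

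The edge of the choice was crowded, as values on both sides show. For unpollinated minus anthesis, the members nearest the limit of -1 were Csa5G633200, Csa6G011680 and Csa5G174650 at -1.02, -1.03 and -1.06, and the genes that failed only there were led by Csa6G454460, Csa7G440550 and Csa4G628890 at -0.95, -0.92 and -0.89. For unpollinated minus pollinated, Csa7G027830, Csa3G135700 and Csa6G148170 were inside at -1.003, -1.01 and -1.03, and Csa3G902310, Csa5G608330 and Csa6G062290 outside at -0.995, -0.97 and -0.89. The first of each trio all but met at the limit. For unpollinated minus inhibited, Csa6G004480, Csa5G174650 and Csa6G490920 were inside at -1.02, -1.03 and -1.03, and Csa3G840430, Csa4G641770 and Csa6G188070 outside at -0.90, -0.88 and -0.87. At the upper limit of 0.8 for pollinated minus anthesis, Csa3G698490, Csa5G517880 and Csa2G361840 were inside, each at 0.79, and Csa1G103250 and Csa2G363030 outside at 0.83 and 0.85.

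The choice made no use of the identifiers. Of the 47 genes, 15 have identifiers that begin with Csa6G (31.9%, against 16.6% of the 16062 genes) and 10 with Csa5G (21.3% against 13.2%). Those that begin with Csa1G were 3 (6.38% against 14.6%). These shares are a description and were not tested. The pair Csa6G011680 and Csa6G011690 was the only one with consecutive identifiers in the sorted list of all genes.

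Of the consecutive pair, Csa6G011680 had 1204, 1133 and 1160 at anthesis, 996, 1535 and 1288 in pollinated, 1643 and 1076 in inhibited and 678, 480 and 572 in unpollinated libraries. Like Csa6G011690, it was lowest in replicate 1 of the pollinated group and highest in replicate 1 of the unpollinated and of the inhibited group, which are the orders of most of the 47 genes. At anthesis the orders differed, with replicate 1 the highest for Csa6G011680 and replicate 3 for Csa6G011690. Without pollination the means of Csa6G011680 and Csa6G011690 were 49.5 and 46.8% of those at anthesis. Whether reads were counted by strand, and whether these genes overlap or are near-identical copies that share reads, is not given in the sources used here. Chosen after their values were seen, Csa5G190560 and Csa5G196580 had 2 identifiers between them, and Csa7G414390 and Csa7G414430 had 3.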

How the data were processed

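The authors deposited whole-number read counts per gene and a second table whose values are a normalized signal. In every library the deposited signal equals the count divided by 1 factor. Per the submitters' processing notes, the tools include DESeq2, HTSeq 0.6.1p1 and STAR 2.5.0a, with no roles; genome build and annotation: not given in the sources used here. A further 5 lines per table name no gene, hold 10.8 to 24.8% of a library's reads and entered no library size or test. Replicate pairs were not duplicates: the mean chi-square per gene, over genes with 20 or more reads in the pair, was 10.0 or more.

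The 47 genes were chosen on the normalized signal with a pseudocount of 1. The members, the contrasts and the rule for naming genes were chosen with earlier results of these data known. Raw counts were tested with edgeR 4.0.16 (R 4.3.3): filterByExpr, TMM, and glmQLFit with 4 group means over 11 libraries. P-values were adjusted over all 18679 genes by Benjamini-Hochberg. The SE is the log2 fold change divided by the square root of F. The common biological coefficient of variation was 12.3%. Depth was 18158218 to 26456643 gene reads; PCR reads without molecular identifiers are not independent molecules, and p-values measure the spread between these ovaries.

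Named genes were the 8 furthest below anthesis, the 4 most abundant, the 4 lowest and 4 highest for pollinated minus anthesis, those called in each test (up to 4 per direction), the 3 most variable in unpollinated ovaries, those at the thresholds and those with consecutive identifiers. Alternatives were DESeq2 1.42.0, other scaling, filters and thresholds, single libraries left out, the second index or the unassigned share as a term, and the 4 libraries with a raised unassigned share left out. Tested on simulated data with 200 changed genes (18526 in the fit), the edgeR pipeline recovered 70.1% of genes changed 2-fold and 81.8% of those changed 4-fold for inhibited against pollinated ovaries.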

Additional observations from a re-analysis of the deposited data

How the results depend on the processing

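No paired analysis was possible because the labels give no replicate numbers that groups share. The choice of genes gave the same 47 with a pseudocount of 0.5 or TMM scaling, 17 with a log2 difference of 1.5 and 90, which include the 47, with 0.8. It gave 39 to 59 when 1 library was left out (37 of the 47 remained without unpollinated replicate 2), and 52, of which 35 were among the 47, without the 4 libraries whose unassigned share was raised. The median unpollinated minus anthesis difference was -1.24 within the first index form and -1.74 to -1.42 without 1 library. For inhibited minus anthesis the median was 0.18 without the 4 libraries and 0.011 to 0.187 without 1 library; for pollinated minus anthesis the latter range was -0.04 to 0.18 and for inhibited minus pollinated -0.02 to 0.16, so these 2 medians have no settled sign. No index form holds both inhibited and anthesis or pollinated libraries, so no value within a form could be had for them.

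For inhibited against pollinated ovaries, 0 of the 47 genes were called without the 4 libraries and 0 to 6 without 1 library. Over all genes 569 were called with the second index as a term, 904 without the 4 libraries and 522 to 2136 without 1 library, against 2120. With the index term, which only the unpollinated group sets since it alone has both forms, the log2 fold change of Csa5G644580 was 0.40 (edgeR adjusted p = 0.762, against 0.00639 to 0.762 over its edgeR alternatives and 0.00115 in DESeq2) and the median of the 47 genes 0.46. For inhibited ovaries against anthesis, 4 of the 47 were called with all genes of 1 read or more, 1 with the index term, 6 with DESeq2 and 1 to 6 without 1 library. Over all genes 863 were called with only the 2 groups in the fit, 17 with the index term, 669 with the unassigned share as a covariate, 806 without the 4 libraries, 2360 with DESeq2 and 345 to 1639 without 1 library, against 1376. The log2 fold changes of the other 5 called pairs of gene and comparison kept their sign under the 18 alternatives each; of these, 11 of 18 were called for Csa7G434970, 14 for Csa4G639110 and 15 for Csa1G629180. Where an inhibited library was left out, the lone one is assumed to vary like the other groups. Low read numbers limit the deepest genes in unpollinated ovaries.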

Other observations

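The other conditions of the choice were also applied to genes at lower levels, so the profile of those genes is set or bounded by the choice as well. Another 31 genes met every condition except the minimum of 50 at anthesis. Their mean normalized count at anthesis ran from 1.80 to 48.1 with a median of 17.7, and 3 of them had 0 in all unpollinated libraries. On the log2 scale their median difference from anthesis was -1.72 in unpollinated, -0.09 in pollinated and 0.03 in inhibited ovaries. At so few reads a condition on single libraries is easily met or missed by counting error.

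Csa2G363030 and Csa1G103250 failed only the upper limit on the pollinated mean, and were singled out after their values were seen. Csa2G363030 had 1775, 1242 and 2416 at anthesis, 2927, 3882 and 2735 in pollinated, 3425 and 3555 in inhibited and 901, 374 and 456 in unpollinated libraries. Its pollinated and inhibited libraries overlapped and lay above all anthesis libraries. Csa1G103250 had 52.1, 79.1 and 91.8 at anthesis, 149, 125 and 115 in pollinated, 35.7 and 41.5 in inhibited and 16.0, 14.1 and 17.2 in unpollinated libraries. Here the inhibited libraries lay below all anthesis and all pollinated ones. These differences were not tested.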
